A study of Mus musculus with 4 samples.

Results

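A set of 9 self-antigen genes of the nervous system and the eye was followed in mouse thymic epithelial cells (TECs): the myelin genes Mbp, Mog, Mag and Mobp, the glial gene S100b, the glutamate decarboxylase genes Gad1 and Gad2, and the retinal genes Rbp3 and Sag. They were chosen by name, as every non-control probe whose gene name or current RefSeq symbol was 1 of these 9 of the 21292 gene symbols on the arrays, which gave 19 of 41174 probes. The samples were TECs of mice aged 3 weeks given tamoxifen daily, 1 mg at a time, for 3 days. K14-CreERT2 Meis1fl/fl mice (called Meis1-CKO here) were compared with K14-CreERT2 Meis1fl/+ mice, labelled WT and termed control below. Both groups therefore carried the inducible Cre, whose keratin 14 promoter is active in basal epithelial cells, and a floxed Meis1 allele, and both received tamoxifen. CD45- EpCAM+ cells were sorted 4 days later, and each genotype had 2 pools of 6 mice, each pool on 1 single-colour Agilent array.

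TECs of the thymic medulla express low amounts of many genes that are otherwise confined to 1 organ, and developing T cells that bind the resulting peptides strongly are deleted or diverted. The nuclear factors AIRE and FEZF2 drive different parts of this expression. Myelin proteins wrap axons and are targets in models of multiple sclerosis, glutamate decarboxylase makes the transmitter GABA and is a target in autoimmune diabetes and stiff-person syndrome, and interphotoreceptor retinoid-binding protein (Rbp3) and S-antigen (Sag) are used to induce autoimmune uveitis.

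The probes are 60 bases long and read 5′ to 3′ in the sense of the transcript, with positions on mm9 as the array files give them, numbered here in the order of the probe names. Shown are probes on which the results below rest, and those of Mbp are not printed. Those of Mog, Mag, Mobp, S100b and Sag printed whole are taken to lie in coding sequence, from knowledge of these proteins and not from a file, and each has a frame without a stop codon, as do 78.3% of all probes. Of the others the first 30 bases are printed, since the files do not annotate their place in the transcript. No base is singled out by capitals.
Mag probe 1, chr7:31684231-31684290, minus strand, first 30 bases: tatttattgctatccctttcctggtctcct
Mag probe 2, chr7:31692038-31692097, minus strand: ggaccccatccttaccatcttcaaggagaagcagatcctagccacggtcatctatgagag
S100b probe 1, chr10:75722709-75722768, plus strand: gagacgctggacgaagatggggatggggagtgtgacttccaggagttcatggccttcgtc
Gad1 probe 1, chr2:70439601-70439660, plus strand, first 30 bases: tattaatggagtaagttctggatactgttt
Gad1 probe 2, chr2:70439699-70439758, plus strand, first 30 bases: gagtgcccttaacataatgatttgaacata
Gad2 probe 2, chr2:22549095-22549154, plus strand, first 30 bases: agtaacaggacaaagaagcaaaaacatcaa
Mobp probe 1, chr9:120077006-120077065, plus strand: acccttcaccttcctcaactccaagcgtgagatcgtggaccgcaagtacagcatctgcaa
Mog probe 2, chr17:37157407-37157466, minus strand: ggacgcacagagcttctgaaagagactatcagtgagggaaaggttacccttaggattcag
Sag probe 1, chr1:89724996-89728424, plus strand: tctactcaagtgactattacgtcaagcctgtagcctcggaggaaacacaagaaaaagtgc
The span of Sag probe 1 is 3429 bases for a 60-base probe, so this probe crosses at least 1 intron and reports spliced RNA.

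The scanner software's own test put 58.6% to 63.6% of the non-control spots of an array well above background, and no spot was saturated. The 75th percentile of the signal, to which each array was scaled, lay between 93.2 and 152. Meis1-CKO 2 stood apart from the other arrays, with correlations of 0.857 to 0.884 with them across 16796 features, against 0.936 to 0.943 among the other 3. Control 1 and Meis1-CKO 1 shared a slide and scan (slide 1), as did control 2 and Meis1-CKO 2 (slide 2), so differences are also given within each slide. Levels below are log2 signals minus the log2 of that percentile, and each group's pool 1 is given before its pool 2. By the brighter of its probes, Meis1 itself read -0.12 and -0.91 in the controls, against -0.44 and -2.08 in the Meis1-CKO pools. The labels do not name the floxed exons, so this probe does not check the labels. In these bulk samples, fewer cells of a type and less RNA per cell cannot be told apart. The series design names 2 independent experiments, but nothing in the labels says whether the pool numbers mark them. Nor do the labels say whether same-numbered pools share animals or a day. The p-values here measure only the spread between 2 pools a group, which limma draws for each feature toward that of all tested features. The SEs given with them rest on the same adjusted spread.

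Of the 9 genes, 4 were measured on all 4 arrays (Mbp, Mag, S100b and Gad1), and they were the 4 genes that entered the test. Gad2, Mobp and Sag were above background on some arrays but not on both arrays of either group, and Mog and Rbp3 were not well above background on any array. Of the 19 probes, 5 were above background on all 4 arrays, 6 on 1 or 2 arrays and 8 on no array, whereas 50.6% of all probes were above background on all 4 and 28.4% on none. By array, 5 of the 19 were above background in control 1, 7 in control 2, 11 in Meis1-CKO 1 and 6 in Meis1-CKO 2. Over all probes the shares were 58.0%, 60.9%, 63.0% and 60.8% in the same order. Of the 6 probes above background on 1 or 2 arrays, 5 had their highest level in Meis1-CKO 1, as did 27.8% of all 5851 such probes, with 18.2%, 22.6% and 31.4% highest in control 1, control 2 and Meis1-CKO 2.

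**Figure D1:**
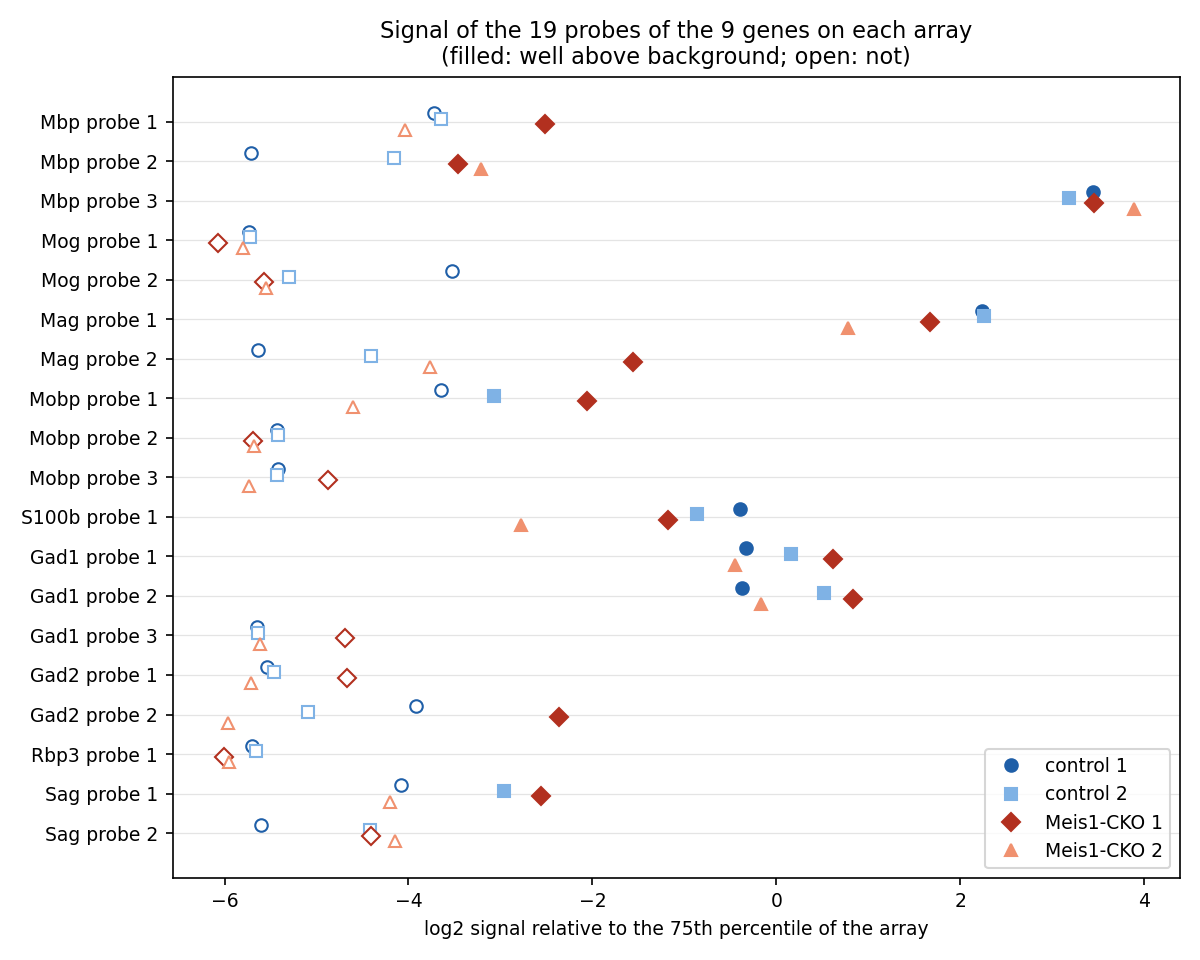
Log2 signal relative to the 75th percentile of the array (x axis) for each of the 19 probes (y axis), with 1 marker per array, filled where the probe was well above background. Mbp probe 3, Mag probe 1, S100b probe 1 and Gad1 probes 1 and 2 are filled on all 4 arrays, and several dim probes are filled in Meis1-CKO 1 alone or with control 2.

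Mbp encodes myelin basic protein, the main protein of the inner face of the myelin membrane. The locus also gives longer golli transcripts from an upstream start, which are known from cells of the immune system. The array carries 3 Mbp probes on chromosome 18. Probe 3, designed on transcript variant 8, was bright in every pool, with levels of 3.45 and 3.18 in the controls, against 3.45 and 3.89 in the Meis1-CKO pools. Both Meis1-CKO pools read above both control pools, but Meis1-CKO 1 exceeded control 1 by 0.01 alone. The difference of Meis1-CKO minus control was 0.36 on the log2 scale (SE 0.45, 1.28-fold, n = 2 pools each, limma adjusted p = 1.00), made up of 0.01 within slide 1 and 0.71 within slide 2. The files do not say whether variant 8 is a golli or a myelin transcript.

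The other Mbp probes were designed on transcript variant 7 and were dim. Probe 2, whose span of 2305 bases crosses an intron, was above background in both Meis1-CKO pools, at -3.46 and -3.22, and in neither control pool, at -5.71 and -4.16. With the control signal set at the lowest that counts as above background, it was at least 1.07-fold higher in Meis1-CKO. Its fit among all single probes gave a log2 difference of 1.60 (SE 0.63, limma adjusted p = 1.00), which rests on the dim control signals, and it passed the filter through the Meis1-CKO pools alone. The groups of this probe did not overlap, but the bound is close to no difference.

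Mbp probe 1 was printed at 10 spots per array, which gives its technical error. The spots averaged 7.81% ± 1.82 (SD, n = 10 spots) of the 75th percentile in control 1 and 8.03% ± 1.14 (n = 9) in control 2. They averaged 17.5% ± 1.69 (n = 9) in Meis1-CKO 1 and 6.38% ± 2.09 (n = 9) in Meis1-CKO 2. All 9 spots of Meis1-CKO 1 were above background, as were 1 of 10 in control 1, 0 of 9 in control 2 and 2 of 9 in Meis1-CKO 2. Of the spots used, the lowest of Meis1-CKO 1, at 15.5%, was brighter than the highest of any other array, at 10.3%. The scanner software called 1 spot an outlier on each array but control 1, at 13.0% in control 2, 25.7% in Meis1-CKO 1 and 33.6% in Meis1-CKO 2, and these were left out. Meis1-CKO 1 thus stood above the controls by more than the spread between spots, whereas the spots of Meis1-CKO 2 overlapped those of both controls, in each case over the spots used. As the probe as a whole was above background in Meis1-CKO 1 alone, no fold between the genotypes is given. Spots are technical repeats of 1 pool and give no test of the genotype.

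**Figure D2:**
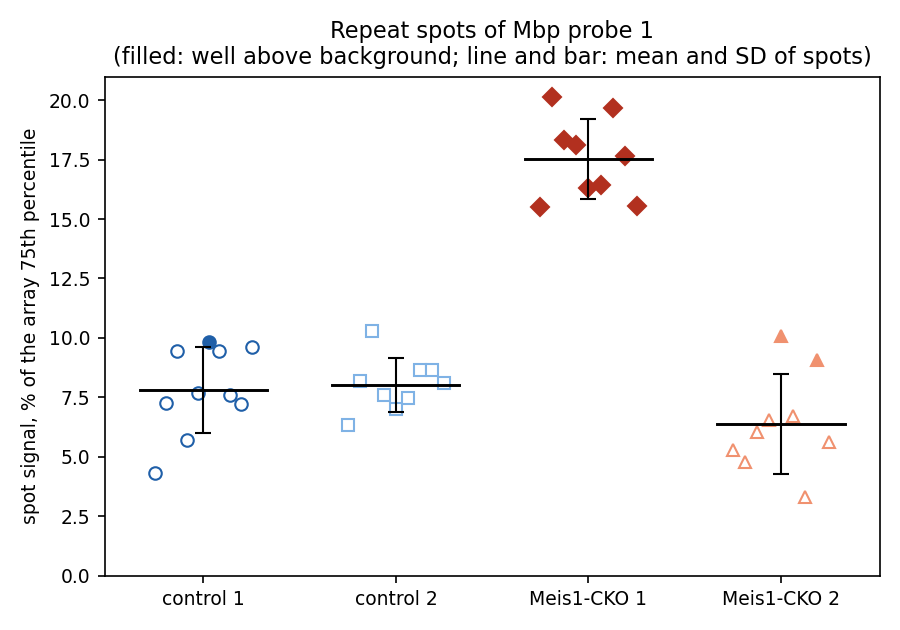
Signal of each repeat spot of Mbp probe 1 (y axis, % of the array's 75th percentile) on the 4 arrays (x axis), filled where the spot was well above background, with the mean and SD of the spots and without 1 outlier spot on each array but control 1. Meis1-CKO 1 averages 17.5%, and the other 3 arrays average between 6.38% and 8.03%.

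Mag encodes myelin-associated glycoprotein, a sialic acid-binding adhesion protein of the inner myelin layer. Probe 1 read 2.24 and 2.26 in the controls, against 1.67 and 0.78 in the Meis1-CKO pools. Both Meis1-CKO pools were below both control pools, and the controls were nearly identical (SD 0.02), whereas the Meis1-CKO pools differed from each other (SD 0.63). The log2 difference was -1.03 (SE 0.50, 2.04-fold lower, n = 2 pools each, limma adjusted p = 1.00), with -0.57 within slide 1 and -1.48 within slide 2. Without Meis1-CKO 2 it was -0.58.

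The 2 Mag probes did not share a pattern. Probe 2, taken as coding and upstream of probe 1 on the minus strand, was above background in Meis1-CKO 1 alone, with levels of -5.64 and -4.41 in the controls, against -1.56 and -3.76 in the Meis1-CKO pools. No fold is given, since it was measured in 1 of 2 Meis1-CKO arrays and in neither control. The lower reading in both Meis1-CKO pools is thus that of 1 of the 2 probes, and which of them reports the full-length transcript was not tested.

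Mobp encodes a small basic protein of central myelin. Of its 3 probes, the coding probe 1, designed on transcript variant 3, read -3.65 and -3.07 in the controls, against -2.06 and -4.60 in the Meis1-CKO pools. It was above background in control 2 and Meis1-CKO 1, and the groups overlapped. Meis1-CKO thus read higher on slide 1 and lower on slide 2, each time with 1 of the 2 arrays not above background. Mobp probes 2 and 3 stayed between -5.73 and -4.87, not well above background on any array. Mog encodes myelin oligodendrocyte glycoprotein, of the outermost myelin surface. Its coding probe 2 read -3.52 and -5.30 in the controls, against -5.57 and -5.55 in the Meis1-CKO pools, and its probe 1 lay between -6.07 and -5.73. Neither was well above background anywhere, so no fold is given.

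S100b encodes a calcium-binding EF-hand protein abundant in astrocytes and Schwann cells. Its probe read -0.40 and -0.87 in the controls, against -1.18 and -2.77 in the Meis1-CKO pools. Both Meis1-CKO pools were below both control pools, and Meis1-CKO 2 was the lowest by more than 1 log2 unit. The log2 difference was -1.34 (SE 0.65, 2.54-fold lower, n = 2 pools each, limma adjusted p = 1.00), with -0.78 within slide 1 and -1.91 within slide 2, and was -0.55 without Meis1-CKO 2. In this fit of all 4 arrays S100b had the largest difference of the 4 tested genes and ranked 885th of 16804 features by p. Without Meis1-CKO 2, Mag differed slightly more than S100b, at -0.58. The summed signal of 12 Schwann cell and oligodendrocyte markers was also lowest in Meis1-CKO 2, at 5.37 times the 75th percentile, against 9.24 in Meis1-CKO 1 and 8.77 to 10.4 in the controls, and its part in the S100b reading was not tested.

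Gad1 and Gad2 encode the larger and the smaller form of glutamate decarboxylase, of which the smaller is the better known diabetes antigen. Gad1 probe 2 read -0.37 and 0.52 in the controls, against 0.84 and -0.17 in the Meis1-CKO pools. The neighbouring probe 1 read -0.33, 0.16, 0.61 and -0.45 in the same order. By both probes Meis1-CKO 1 was highest, control 2 followed, and the groups overlapped. The log2 difference of probe 2 was 0.26 (SE 0.58, 1.20-fold, n = 2 pools each, limma adjusted p = 1.00), and that of probe 1 was 0.17 (SE 0.55, adjusted p = 1.00 among all single probes). Probe 2 differed by 1.21 within slide 1 and -0.69 within slide 2 and probe 1 by 0.94 and -0.61. Gad1 was therefore higher in Meis1-CKO on 1 slide and lower on the other, and the sign of the difference turned without control 1 (-0.18) and without Meis1-CKO 1 (-0.24). Gad1 probe 3, toward the 5′ end of the gene, was above background on no array.

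Gad2 was much dimmer. Probe 2 was above background in Meis1-CKO 1 alone, with levels of -3.91 and -5.09 in the controls, against -2.36 and -5.97 in the Meis1-CKO pools. The other 3 readings have no order, since none was above background, and no fold is given. Gad2 probe 1 was between -5.72 and -4.67 and above background on no array.

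Of the retinal antigens, Sag encodes S-arrestin, which ends the light response of rods, and Rbp3 encodes the retinoid carrier between photoreceptors and pigment epithelium. The junction-crossing Sag probe 1 read -4.09 and -2.96 in the controls, against -2.56 and -4.20 in the Meis1-CKO pools. It was above background in control 2 and Meis1-CKO 1, the same arrays as Mobp probe 1, and the groups overlapped. Sag probe 2 was above background on no array. The single Rbp3 probe read -5.70 and -5.66 in the controls, against -6.01 and -5.95 in the Meis1-CKO pools, not well above background on any array.

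No gene of the 9 passed the test. With the threshold of 0.05 on the adjusted p, limma called 0 of 16804 features in either direction (0.00%), while 467 (2.78%) had an unadjusted p under 0.05. The unadjusted p-values were 0.0893 for S100b, 0.0897 for Mag, 0.457 for Mbp and 0.671 for Gad1. With the slide as a block the differences are the same by construction, the SEs were 0.50, 0.47, 0.45 and 0.62, and all 4 adjusted p-values were again 1.00. The groups did not overlap for 3 of the 4 tested genes (Mag and S100b lower, Mbp higher), as for 25.5% of all features (14.4% lower and 11.1% higher). Mag and S100b were also lower by at least 2-fold without overlap, which held for 3.94% of all features, and lower on both slides, which held for 26.5%. Their differences were under 2-fold with another background correction (normexp), at -0.86 and -0.65, and without Meis1-CKO 2, at -0.58 and -0.55. Mbp was higher on both slides, as were 20.4% of all features. These 4 genes entered the test through their own brightness, and the 5 dimmer ones did not.

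Set side by side, the 11 probes above background on some array fell into several patterns. Mag probe 1 and S100b were highest in a control and lowest in Meis1-CKO 2, where 36.9% of all features had their lowest level. Gad1, Gad2 probe 2, Mobp probe 1, Sag probe 1 and Mbp probe 1 were highest in Meis1-CKO 1. For Gad1, which was tested, the share of all tested features highest there was 21.7%. For the other 4 probes, which were not, the share of all probes above background on 1 or 2 arrays was 27.8%. Gad1, measured on every array, was higher on slide 1 and lower on slide 2 by both probes, as were 29.8% of all features. Of the other 4 probes, Mobp probe 1 and Sag probe 1 were measured in control 2 as well, and Gad2 probe 2 and Mbp probe 1 in no other array. Mbp probes 2 and 3 were highest in Meis1-CKO 2, and Mag probe 2 in Meis1-CKO 1. The median log2 difference of all features was -0.05 over both slides, 0.0015 within slide 1 and -0.12 within slide 2. Aire, the main driver of tissue-restricted antigens, read 2.50 and 4.59 in the controls, against 3.03 and 2.37 in the Meis1-CKO pools. It was thus highest in control 2, followed by Meis1-CKO 1, and its part in these patterns was not tested.

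**Figure D3:**
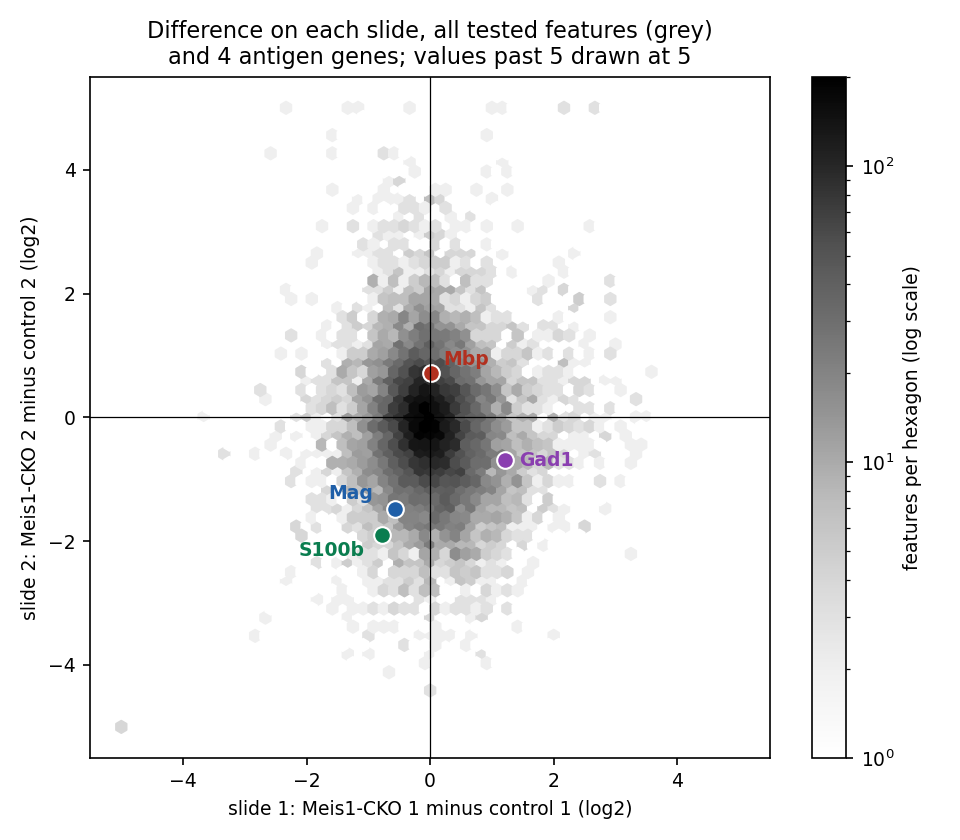
Log2 difference of Meis1-CKO minus control on slide 1 (x axis) and slide 2 (y axis), with all tested features as grey hexagons (values past 5 drawn at 5) and the 4 tested antigen genes as points. Mag and S100b lie in the lower left quadrant, Gad1 in the lower right and Mbp just above the centre at 0.01 and 0.71.

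Other genes of myelin, retina and neurons were taken from lists that hold none of the 9. Of 20 myelin and glial genes, 11 were tested, 2 with a positive and 9 with a negative difference, where 45.4% of all features were positive, and the median log2 difference was -0.26 (-0.08 within slide 1 and -0.36 within slide 2). None passed the test, and the groups did not overlap for 1 of the 11, against 25.5% of all features. That gene was Ugt8a, which makes the galactolipid of myelin, with levels of -4.48 and -5.60 in the controls, against -2.43 and -1.84 in the Meis1-CKO pools. It was above background in both Meis1-CKO pools and in neither control, at least 2.46-fold higher, and so entered the test through the group where it is high. Its second probe, above background on 2 arrays, overlapped between the groups with a difference of 1.33. Myrf, a transcription factor of oligodendrocytes, differed by -1.46 (SE 1.09), with -0.08 within slide 1 and -2.84 within slide 2. Its reading in Meis1-CKO 2 was not above background. Mpzl1 differed by -0.47 (SE 0.48). Without Meis1-CKO 2 the median of this list was 0.19.

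Of 25 retinal genes, 24 were on the arrays, 11 of them above background nowhere, and 8 were tested. Their median difference was -0.60 (0.20 within slide 1 and -0.88 within slide 2), 3 were positive and 5 negative, and none passed. The groups did not overlap for 5 of the 8, 4 of them lower, against 25.5% of all features. Nrl, a rod transcription factor, was the 1 gene of the 5 that read higher, at -2.52 and -1.26 in the controls and -0.34 and -0.36 in Meis1-CKO, a difference of 1.54 (SE 0.57, limma adjusted p = 1.00). Pde6g, a subunit of the rod phosphodiesterase, was above background in both controls only, through which it entered the test, and at least 1.43-fold lower, and Guca1b, a guanylate cyclase activator, differed by -0.64 (SE 0.47).

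The list of neuronal and GABA genes had 15 of 25 tested, 4 with a positive and 11 with a negative difference, and none passed. Its median was -0.24. Within slide 1 the median was 0.43 and 10 of 15 genes were higher, beside 50.1% of all features, and within slide 2 it was -0.54 and 4 of 15 were higher, beside 43.7%. Without Meis1-CKO 2 this median was 0.25. Nefl, the light neurofilament subunit, was the 1 gene of the 15 whose groups did not overlap, against 25.5% of all features, at 2.62 and 2.93 in the controls, against 1.76 and 0.37 in the Meis1-CKO pools. It differed by -1.71 (SE 0.60, limma adjusted p = 1.00), with -0.86 and -2.55 in the 2 slides, while a second, dimmer Nefl probe differed by 0.35. Nefm, the medium subunit, differed by 0.92 within slide 1 and -2.92 within slide 2, where Meis1-CKO 2 was not above background. Map2, a dendritic microtubule protein, differed by -0.52 (SE 0.63) and Slc32a1, the vesicular GABA transporter, by 0.50 (SE 0.52).

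Regulators of tissue-restricted antigens had 8 of 9 genes tested, 4 positive and 4 negative, with a median of -0.35 (0.03 within slide 1 and -0.54 within slide 2), and none passed. Aire differed by -0.85 (SE 0.78) and Fezf2 by -0.79 (SE 0.69). Fezf2 read 2.80 and 2.68 in the controls, against 2.85 and 1.05 in the Meis1-CKO pools, so that Meis1-CKO 2 alone stood below the others. Sirt1, a deacetylase, was likewise lowest in Meis1-CKO 2 (2.85, 2.82, 2.86 and 1.27 in the same order), and Deaf1, a transcription factor linked to peripheral antigen expression, differed by -0.90 (SE 0.43), with another probe at 0.65.

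**Figure D4:**
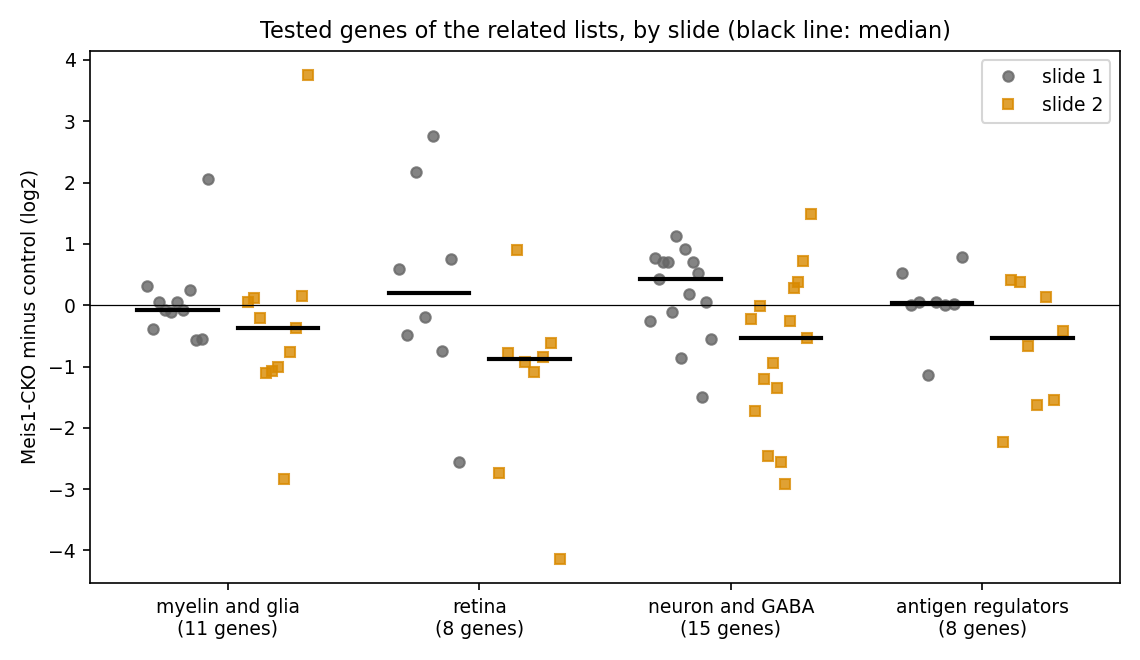
Log2 difference of Meis1-CKO minus control (y axis) of each tested gene in 4 related gene lists (x axis), on slide 1 (grey circles) and slide 2 (orange squares), with the median as a black line. The medians are -0.08, 0.20, 0.43 and 0.03 on slide 1 and -0.36, -0.88, -0.54 and -0.54 on slide 2, in the order of the lists.

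Markers of glia, neurons and other cells were read beside these genes. All 10 TEC markers were above background on every array, with a summed signal of 495 to 640 times the 75th percentile in the controls and of 441 to 517 in Meis1-CKO. Cd74, the brightest of them, weighs most in these sums, at 7.75 and 7.71 in the controls, against 7.71 and 8.08 in the Meis1-CKO pools. It was the 1 gene of the 10 with a positive difference, and 9 were negative, where 45.4% of all features were positive. The median difference of the 10 was -0.61 (-0.13 within slide 1 and -0.71 within slide 2). Of 12 Schwann cell and oligodendrocyte markers, 5 and 7 were above background in the controls, against 9 and 7 in the Meis1-CKO pools, with summed signals of 8.77 to 10.4 in the controls and of 5.37 to 9.24 in Meis1-CKO. The defining glial factor Sox10 was dim, at -4.16 and -2.85 in the controls, against -4.28 and -3.23 in the Meis1-CKO pools. It was above background in control 2 and Meis1-CKO 2 only. Prx, Ngfr, Erbb3, Olig2 and Foxd3, by contrast, were above background on every array. Prx, the brightest of the 12, read 2.35 and 1.78 in the controls, against 1.77 and 1.25 in the Meis1-CKO pools. Erbb3 read 0.25 and 1.39, against 1.21 and 0.63. Cdh19 and Gfap were above background on no array. Like Gad2 probe 2, Mag probe 2 and Mbp probe 1, then, the glial genes Pmp2 and Olig1 were above background in Meis1-CKO 1 alone, as were 2.65% of all probes.

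The 11 neuron markers summed to 10.7 and 11.0 in the controls, against 8.25 and 4.60 in the Meis1-CKO pools, and between 7 and 9 of them were above background per array, Elavl3 and Th in Meis1-CKO 1 alone and Elavl4 in Meis1-CKO 2 alone. Nefl, the brightest of the 11 on every array, weighs most in these sums. It read 2.62 and 2.93 in the controls, against 1.76 and 0.37 in the Meis1-CKO pools. Within slide 2, 4 of the 8 tested neuron markers were higher in Meis1-CKO and 4 were lower. Nefl and Nefm are in this list and in that of neuronal and GABA genes. Thymocyte and T cell markers, of which 10 to 12 of 12 were above background, summed to 51.1 and 19.1 in the controls, against 6.23 and 44.1 in the Meis1-CKO pools. Dntt, at 5.13 and 3.50 in the controls, against 1.73 and 3.49, weighs most in the sums of the controls and Meis1-CKO 1. Of the 11 tested, 10 were lower in Meis1-CKO within slide 1, and 9 were higher within slide 2. Myeloid and dendritic cell markers, with 8 to 12 of 12 above background, summed to 23.5 and 31.1 in the controls, 27.3 in Meis1-CKO 1 and 113 in Meis1-CKO 2. Ptprc and Tyrobp, at 5.55 and 4.89, weigh most in the sum of Meis1-CKO 2, and Lyz2 in those of the other arrays. Meis1-CKO 2, the array with the lowest Mag probe 1 and S100b and the highest Mbp probe 3, was therefore also the one with the highest summed myeloid signal. It had the lowest summed neuronal and TEC signals as well, the neuronal one weighted by Nefl. Meis1-CKO 1, with the highest Gad1, Gad2, Mobp and Sag probe 1, had the lowest thymocyte signal. Fibroblast markers, with 5 to 7 of 7 above background, summed to 6.72 to 11.2 in the controls and to 11.9 and 2.97 in Meis1-CKO 1 and 2, endothelial markers (3 to 4 of 6, Emcn on no array) to 0.899 to 0.930 and to 0.786 and 4.61, and erythroid markers (4 of 5) to 4.02 to 8.10 and to 6.44 and 2.26. The part of these cells in the antigen readings was not tested.

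Some features had nearly the same pattern over the 4 arrays as the 3 tested genes with the widest ranges, among 11912 named features above background on all 4. Likeness was the Euclidean distance between log2 levels, each centred on its own mean, over 4 samples, and is a description. S100b, with a range of 2.37, was closest to Clip4 (distance 0.122), Il33 (0.147) and Lpar1 (0.159). Il33, an epithelial alarmin cytokine, read -0.24 and -0.53 in the controls, against -0.87 and -2.59 in the Meis1-CKO pools. Mag, with a range of 1.48, was closest to the tubulin gene Tubb2b (0.0295), the alcohol dehydrogenase gene Adh4 (0.0508) and Pnmal1 (0.0755). Gad1, with a range of 1.21, was closest to the Hedgehog receptor gene Ptch1 (0.0714), the mucosal scavenger receptor gene Dmbt1 (0.0727) and the eosinophil peroxidase gene Epx (0.0885).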

How the data were processed

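RNA of 4 sorted TEC pools was hybridised to single-colour Agilent arrays after amplification from 10 ng each. The deposited spot intensity values were made with Agilent Feature Extraction 9.5.3.1, which, per the file headers, detrended each array for spatial and multiplicative background and replaced low values by surrogates. The deposited table of log2 values matched differences of the scaled scanner signals (slope 1 over 20820 probes) after centring each probe on its median over the arrays, and its column medians were 0.04 and 0.09 for the controls and -0.06 and -0.12 for the Meis1-CKO arrays.

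Log2 processed signals were scaled to each array's 75th percentile, 1639 control spots and 63 to 78 outlier spots per array were left out, and spots of 1 probe were averaged. A probe counted as above background where over 0.5 of its spots did. Probes that did so on both arrays of at least 1 group were tested, the brightest standing for its gene (16804 features), with limma 3.58.1 in R 4.3.3 on all 4 arrays, Benjamini-Hochberg adjustment and a threshold of 0.05. Precision is limited by having 4 arrays. Bounds used, per array, the lowest signal of any probe above background, or the dim probe's own where higher. Symbols of 26690 probes came from RefSeq accessions (GRCm38.p6 table, names only). Same-numbered arrays shared a slide, and their deviations correlated at 0.133 across features.

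The genes and lists were chosen with earlier results of these data known. Named are all 9 genes with every probe, up to 4 genes of each related list with the smallest p, Aire, Fezf2, and the nearest features in pattern. Some genes that this rule or a marker list takes in are not reported here. Genes named from the marker lists, whether above background on 1 array, every array or none, and Il33's levels, were chosen after their values were seen. The test was checked on simulated data. Alternatives were other scalings, background corrections, filters and probe choices, the deposited table, a replicate block and leaving out each array.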

Additional observations from a re-analysis of the deposited data

How the results depend on the processing

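Under 8 alternatives (quantile normalization, normexp, another percentile, no filter, a stricter filter, every probe alone, the deposited table and the replicate block), limma called 0 features, and the differences of Mag (-1.04 to -0.86), S100b (-1.35 to -0.65), Mbp (0.27 to 0.42) and Gad1 (0.17 to 0.27) kept their sign with adjusted p-values from 0.698 to 1.00. Same-numbered arrays share a slide and a number but no stated day or litter. With the replicate block, 662 features had an unadjusted p under 0.05 against 467 without it, and no call changed. Leaving out 1 array gave 0 to 317 called features, the 317 without Meis1-CKO 1, where the lone Meis1-CKO array is assumed to vary like the others, and none of the 4 genes was among those called (lowest adjusted p 0.115). It gave -1.47 to -0.58 for Mag, -2.14 to -0.55 for S100b and 0.14 to 0.58 for Mbp. Gad1 ranged from -0.24 (without Meis1-CKO 1) to 0.77 and was -0.18 without control 1. List medians ranged over -0.74 to 0.19 for myelin and glia, -0.73 to -0.09 for retina, -0.57 to 0.25 for neurons and GABA (0.25 without Meis1-CKO 2) and -0.74 to -0.030 for the regulators (-0.74 without control 1). The regulator median was -0.77 with no filter, which adds 1 gene. With normexp the list medians were -0.15 for myelin and glia, -0.28 for retina, -0.13 for neurons and GABA and -0.12 for the regulators. The retinal median was also -0.31 with no filter, and every probe alone gave -0.50 for neurons and GABA and -0.13 for the regulators. The causes were not tested. Without the filter the median of all features was -0.16 against -0.05. Mog and Rbp3 stayed within background, so their presence below it cannot be judged.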
